A study of Mus musculus with 6 samples.

Results

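The E2F transcription factors and the pocket proteins that bind them were examined in MC3T3-E1 cells, a mouse pre-osteoblast line that lays down mineralized matrix when it is induced. The members were found by gene name in the deposited table: E2f1, E2f2, E2f3, E2f4, E2f5, E2f6, E2f7, E2f8, Rb1 and Rbl1, which are 10 of its 54532 genes. All of the cells were kept in osteogenic medium for 3 days. The control group had no metformin, and the other group was given 0.2 mM metformin, a biguanide that lowers blood glucose, with 3 samples in each group. The labels name neither the dose nor the time, which were taken from the paper that reported the samples. The study calls the samples biological replicates, and they all come from 1 cell line.

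E2F proteins are transcription factors of the G1 to S transition of the cell cycle, and most of them bind DNA as a pair with a DP protein. E2f1, E2f2 and E2f3 are known as activators, E2f4 and E2f5 as repressors that work together with pocket proteins, E2f6 as a repressor that does not bind pocket proteins, and E2f7 and E2f8 as atypical repressors that bind DNA without DP. The pocket proteins, the retinoblastoma protein Rb1 and its relatives Rbl1 (p107) and Rbl2 (p130), hold E2F factors inactive until cyclin-dependent kinases phosphorylate them. Several E2F genes and Rbl1 are themselves textbook E2F targets. In bone, Rb1 is best known as a gene whose loss gives rise to osteosarcoma.

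The E2F binding sequence was searched in promoter windows from RefSeq (GRCm38.p6), each running from 250 bases before a start site to 50 bases after it. The letters searched were TTTCCCGC, TTTGGCGC, TTTCGCGC and TTTGCCGC on both strands, and 2.26% of all 32851 windows held at least 1 of them. The members had 9 windows, which covered 7 of the 10, and 4 of these 7 genes had a match: E2f2, E2f3, E2f7 and Rbl1. Counted by gene, 2.60% of all 27025 genes with a window had a match. The 30 bases around each match are shown 5′ to 3′ on the strand of the gene, with the match in capitals, because these are the letters through which members could be read by E2F proteins.
E2f2, chr4:136172294-136172323: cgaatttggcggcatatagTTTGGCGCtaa
E2f3, chr13:29986056-29986085: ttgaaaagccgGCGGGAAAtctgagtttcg
E2f7, chr10:110745230-110745259: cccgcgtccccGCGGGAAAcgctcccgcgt
Rbl1, chr2:157204534-157204563: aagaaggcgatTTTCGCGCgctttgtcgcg

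In E2f3 and E2f7 the capitals are the reverse complement of TTTCCCGC. The match lay 11 bases before the RefSeq start site in E2f3, 18 bases before it in Rbl1 and 198 bases before it in E2f7. In E2f2 it lay at base 40 after the RefSeq start, and this start lies upstream of the gene as deposited. E2f6, E2f8 and E2f1 had no match in their windows, and the E2f1 window starts from a RefSeq site that lies 466 bases inside the gene as deposited. A match is a description of letters and not evidence of binding. The 250 bases before the start site are given for Rbl1, E2f7 and E2f8, which had the 3 largest changes with metformin among the members on the log2(FPKM + 1) scale, again with the match in capitals.
Rbl1, chr2:157204535-157204784: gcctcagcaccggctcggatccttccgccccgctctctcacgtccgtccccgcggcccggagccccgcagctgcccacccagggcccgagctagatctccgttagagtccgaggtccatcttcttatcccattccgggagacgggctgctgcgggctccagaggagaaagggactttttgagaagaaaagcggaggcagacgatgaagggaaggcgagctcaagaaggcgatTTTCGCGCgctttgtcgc
E2f7, chr10:110745189-110745438: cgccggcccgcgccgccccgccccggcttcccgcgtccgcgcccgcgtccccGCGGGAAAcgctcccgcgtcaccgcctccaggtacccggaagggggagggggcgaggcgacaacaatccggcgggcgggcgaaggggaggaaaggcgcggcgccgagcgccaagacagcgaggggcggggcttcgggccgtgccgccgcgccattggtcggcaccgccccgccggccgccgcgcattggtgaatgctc
E2f8, chr7:48881597-48881846: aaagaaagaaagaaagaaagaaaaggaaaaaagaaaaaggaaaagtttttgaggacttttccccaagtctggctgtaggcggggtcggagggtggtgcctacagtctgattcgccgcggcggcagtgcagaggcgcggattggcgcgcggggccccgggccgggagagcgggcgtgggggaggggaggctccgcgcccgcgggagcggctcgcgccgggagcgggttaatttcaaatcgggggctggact

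The table holds FPKM, in which reads are divided by gene length and by a library size, so levels can be compared roughly between genes. The library size in these values was not the plain sum of the recovered reads. In control replicate 3 it was 19655718 against 18792236 reads. Recovered reads totalled 18399861 to 22111790 per sample, where 3 reads are at most 1.63e-05% of a library (counting error only). Control replicate 1 stood apart: its log2 values had Pearson correlations across genes of 0.960 and 0.952 with the other controls, which had 0.988 with each other, while those of the metformin samples were all 0.992. Its deviation from the other controls followed the GC content of the transcripts (Spearman correlation across genes -0.668), so each member is given with and without it. All 12 osteoblast genes on the list were above the FPKM limit of the test. Among them were the osteoblast transcription factors Runx2, at 25.8 to 34.1 FPKM, and Sp7, at 36.8 to 54.0 FPKM, while Alpl was at 2.44 to 3.84 FPKM. Passing this limit does not set the lineage apart, since genes of other lists passed it too. Sox9 and Col2a1 of the chondrocyte list were at 19.9 to 28.1 and 6.44 to 11.9 FPKM, but Acan was at most at 0.027 FPKM. Cebpa of the adipocyte list was at 4.67 to 10.1 FPKM, but Pparg was at most at 0.202 FPKM. The summed osteoblast list was 11443 to 13454 FPKM in the controls and 8183 to 8680 FPKM with metformin. The summed endothelial list stayed at or below 0.16 FPKM, and the adipocyte and chondrocyte sums overlapped between the groups, at 7.76 to 12.2 and 27.4 to 41.5 FPKM. The haematopoietic sum was higher with metformin (27.1 to 30.9 FPKM) than without (15.3 to 26.0 FPKM), mostly through Lyz2, which was not called (adjusted p = 0.0771 by limma-trend). Cd68 was called lower (log2 fold change -0.49, adjusted p = 0.0102), while the defining genes Ptprc and Adgre1 were at or below 0.0156 FPKM and Itgam was at 0 reads. The muscle sum was 2.33 to 2.80 FPKM against 1.2 to 2.02 FPKM, with Myod1 and Myog at 0 reads. The part of these genes in the results was not tested.

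With metformin, 5 of the 10 members were higher and the other 5 were not called (limma-trend on log2(FPKM + 1), Benjamini-Hochberg adjusted p-value under 0.05 over 12681 genes). The 5 were the activators E2f1 and E2f2, both atypical factors E2f7 and E2f8, and the pocket protein Rbl1. Over all tested genes 13.2% were called higher and 9.28% lower, and the median log2 fold change was 0.0053. No member was called lower by limma-trend, 0 had a lower value at an unadjusted p-value under 0.05, and voom on the recovered reads also called 0 lower. The metformin samples lay entirely above the controls for 6 members, the 5 called ones and E2f3, where 23.6% of all tested genes did so, and they lay entirely below the controls for none of the members and for 20.5% of all tested genes. All 10 members passed the filter of a mean of 0.5 FPKM, though E2f2 passed it only through the metformin samples. In bulk RNA, more cells that express a gene and more RNA of it per cell cannot be told apart.

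**Figure D1:**
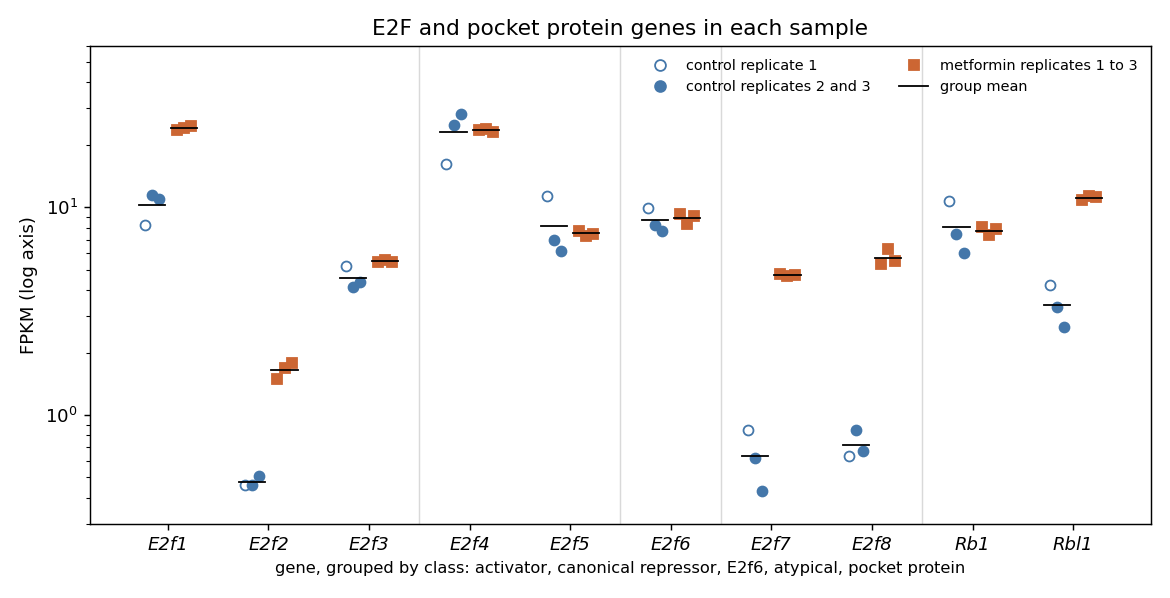
Level of each member in each sample, in FPKM on a log axis, with circles for the 3 control samples (open for control replicate 1), squares for the 3 metformin samples and a bar at each group mean. E2f1, E2f2, E2f7, E2f8 and Rbl1 sit higher in all 3 metformin samples by more than 2-fold in the mean, while the levels of E2f4, E2f5, E2f6 and Rb1 overlap.

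E2f1, the activator most closely tied to entry into S phase, lies on chromosome 2 (154559407 to 154569892, minus strand). Its level was 8.25, 11.5 and 10.95 FPKM in the control samples and 23.7, 24.2 and 24.6 FPKM with metformin. All metformin samples were above all controls, and the lowest of them was more than 2-fold above the highest control. The mean rose from 10.2 ± 1.74 to 24.2 ± 0.490 FPKM (SD, n = 3), a ratio of 2.36 and a log2 fold change of 1.18 ± 0.13 (SE, adjusted p = 0.00114 by limma-trend). Of all tested genes, 2.83% had a log2 fold change at least as high. Without control replicate 1, in which E2f1 was lowest, the log2 fold change was 1.04.

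E2f2, a second activator (chromosome 4, 136172394 to 136196057, plus strand), had the lowest mean of the members in both groups. It had 0.460, 0.459 and 0.511 FPKM in the controls and 1.49, 1.68 and 1.78 FPKM with metformin. These values rest on 41, 47 and 49 reads against 144, 179 and 169 reads, so all control samples were far above the floor of 3 reads and well below every metformin sample. The ratio of the means was 3.46, and the log2 fold change was 0.84 ± 0.09 (SE, adjusted p = 0.00137 by limma-trend). Because the pseudocount shrinks the change of a low gene, the log2 fold change was 1.60 with a pseudocount of 0.1 and 1.78 by voom. Without control replicate 1 it was 0.83.

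E2f3, the remaining activator (chromosome 13, 29906575 to 29986063, minus strand), differed little. Its level was 5.21, 4.13 and 4.39 FPKM in the controls and 5.46, 5.55 and 5.47 FPKM with metformin. The metformin samples did not overlap the controls, but control replicate 1 lay close below them. The ratio was 1.202 and the log2 fold change 0.23 ± 0.09 (SE, adjusted p = 0.140 by limma-trend), which did not pass the threshold. Without control replicate 1 it was called, with a log2 fold change of 0.31 (adjusted p = 0.00879), in a fit that called 23.4% of all tested genes higher and 20.4% lower. E2f3 has an a and a b form from different start sites, and the table gives 1 value for the gene, so the forms were not separated.

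The atypical factors changed most among the members. E2f7 (chromosome 10, 110745439 to 110787384, plus strand) had 0.851, 0.619 and 0.429 FPKM in the controls and 4.79, 4.66 and 4.71 FPKM with metformin. The 3 metformin samples differed from one another by less than the 3 controls did, and all were more than 5-fold above the highest control. The ratio of the means was 7.45, with a log2 fold change of 1.82 ± 0.11 (SE, adjusted p = 0.000163 by limma-trend). With a pseudocount of 0.1 the log2 fold change was 2.76, and without control replicate 1 it was 1.91.

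E2f8 (chromosome 7, 48866429 to 48881596, minus strand) had 0.634, 0.8496 and 0.673 FPKM in the controls and 5.33, 6.33 and 5.52 FPKM with metformin. No sample of either group came near the other group. The means were 0.719 ± 0.115 and 5.73 ± 0.531 FPKM (SD, n = 3), a ratio of 7.97, and the log2 fold change was 1.97 ± 0.10 (SE, adjusted p = 8.18e-05 by limma-trend). Leaving out control replicate 1 gave 1.93. Only 0.718% of all tested genes had a log2 fold change at least as high, against 0.970% for E2f7. E2f8 overlaps Gm2788 on the opposite strand, with 339 identical bases of transcript, but Gm2788 held at most 9 reads in a sample where E2f8 held 63 to 751.

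Of the pocket proteins, Rbl1 rose and Rb1 was not called. Rbl1 (chromosome 2, 157145893 to 157204534, minus strand) encodes p107, which pairs mainly with E2f4 and E2f5 in cycling cells. Its level was 4.25, 3.30 and 2.65 FPKM in the controls and 10.9, 11.3 and 11.3 FPKM with metformin. Every metformin sample was more than 2-fold above every control. The mean went from 3.40 ± 0.805 to 11.1 ± 0.218 FPKM (SD, n = 3), a ratio of 3.28, with a log2 fold change of 1.48 ± 0.14 (SE, adjusted p = 0.000603 by limma-trend). Without control replicate 1, the highest control for this gene, the log2 fold change was 1.62.

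Rb1 (chromosome 14, 73183673 to 73325822, minus strand) had 10.7, 7.46 and 6.03 FPKM in the controls and 8.04, 7.34 and 7.83 FPKM with metformin. The metformin samples lay inside the range of the controls. The log2 fold change was -0.02 ± 0.18 (SE, adjusted p = 0.946 by limma-trend), and it was 0.18 without control replicate 1 (adjusted p = 0.165). Rb1 overlaps Rcbtb2 and Lpar6 on the opposite strand, and whether counting used strand is not stated in the study, so some of its reads may belong to them. Rbl2, the pocket protein typical of quiescent cells, had 10.4, 6.76 and 6.82 FPKM in the controls and 6.05, 6.35 and 6.48 FPKM with metformin. All 3 metformin samples of Rbl2 were below the controls, but its log2 fold change of -0.28 was not called (adjusted p = 0.259 by limma-trend). Rbl2 overlaps Aktip on the opposite strand.

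The repressors E2f4 and E2f5 and the pocket-independent repressor E2f6 were not called. E2f4 (chromosome 8, 105297663 to 105305370, plus strand) had 16.1, 24.9 and 28.2 FPKM in the controls and 23.6, 23.8 and 23.1 FPKM with metformin. Control replicate 1 was the lowest sample and control replicate 3 the highest, with the metformin samples between them. The log2 fold change was 0.06 ± 0.19 (SE, adjusted p = 0.854 by limma-trend).

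E2f5 (chromosome 3, 14578641 to 14606309, plus strand) showed the reverse order among the controls, at 11.4, 6.96 and 6.14 FPKM, against 7.72, 7.31 and 7.49 FPKM with metformin. Its log2 fold change was -0.06 ± 0.20 (SE, adjusted p = 0.851 by limma-trend). E2f6 (chromosome 12, 16810963 to 16839742, plus strand) had 9.97, 8.28 and 7.72 FPKM in the controls and 9.27, 8.36 and 9.05 FPKM with metformin, a log2 fold change of 0.04 ± 0.11 (SE, adjusted p = 0.823 by limma-trend). E2f5 overlaps the coding gene 1810022K09Rik on the opposite strand by 26 bases. Standard errors of this size leave room for changes that these 6 samples could not show.

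Control replicate 1 set most of the spread of these uncalled genes. On the log2(FPKM + 1) scale it differed from the mean of the other controls by -0.68 for E2f4, 0.72 for E2f5, 0.61 for Rb1 and 0.29 for E2f6. The GC content of the longest transcript was 56.1% for E2f4, 46.8% for E2f5, 41.2% for Rb1 and 49.2% for E2f6. Without that sample the log2 fold changes were -0.17 for E2f4 (adjusted p = 0.0867), 0.17 for E2f5 (adjusted p = 0.0885) and 0.14 for E2f6 (adjusted p = 0.154), so that the signs of E2f4, E2f5 and Rb1 turned and none of these genes was called. The 5 higher members were called in each of the 14 alternative fits, among them a fit with a GC correction that called 16.3% of all tested genes higher and 19.2% lower. Their adjusted p-values were at most 0.0173 in those fits, and their log2 fold changes fell no lower than 0.78, which was the value of E2f2 with a GC correction.

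**Figure D2:**
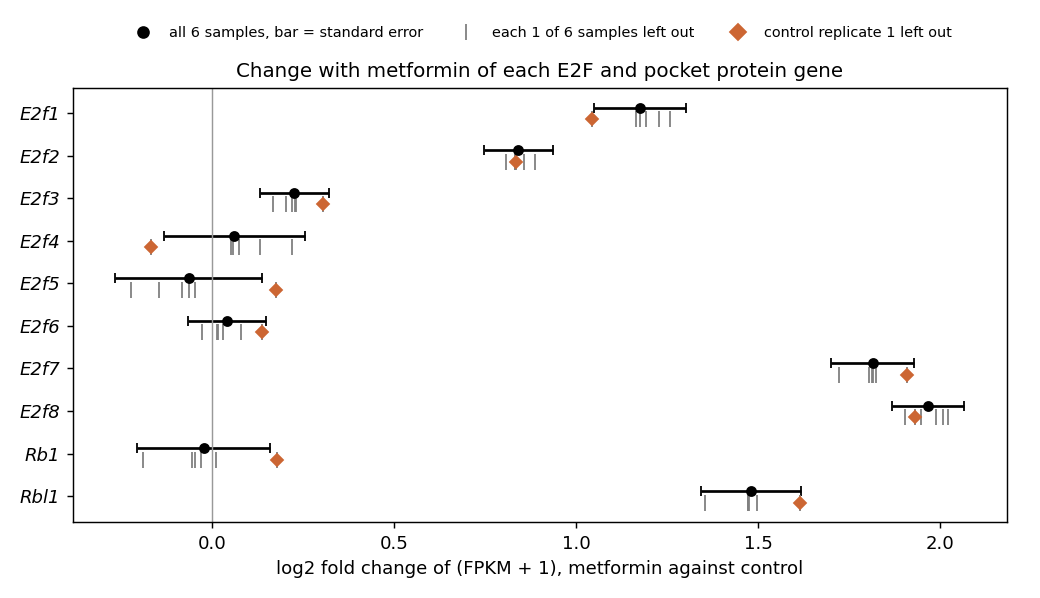
Log2 fold change of FPKM + 1 with metformin for each member: black points for all 6 samples with the standard error as bars, grey ticks for the fits that each leave out 1 sample, and orange diamonds for the fit without control replicate 1. E2f1, E2f2, E2f7, E2f8 and Rbl1 stay at 0.81 or higher in every such fit, while E2f4, E2f5 and Rb1 cross 0 when control replicate 1 is left out.

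The order of the levels differed between the groups. In osteogenic medium alone E2f4 led with a mean of 23.1 FPKM, above every other member in every control sample. E2f1, E2f6, E2f5 and Rb1 followed at 10.2, 8.65, 8.17 and 8.07 FPKM, with ranges that overlapped from each gene to the next. E2f3 and Rbl1 came next at 4.57 and 3.40 FPKM and also overlapped, and E2f8, E2f7 and E2f2 closed the order at 0.719, 0.633 and 0.476 FPKM without a clear separation from neighbour to neighbour.

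With metformin, E2f1 and E2f4 shared the top, at 24.2 and 23.5 FPKM with overlapping ranges. The ratio of E2f1 to E2f4 was 0.511, 0.461 and 0.388 in the controls and 1.00, 1.02 and 1.07 with metformin. Rbl1 moved to the third place at 11.1 FPKM, above E2f6, Rb1 and E2f5 in every metformin sample. The ratio of Rbl1 to Rb1 was 0.396, 0.443 and 0.439 in the controls and 1.36, 1.54 and 1.44 with metformin, so p107 mRNA was below Rb1 mRNA in each control and above it in each metformin sample. The ratio of Rbl2 to Rbl1 fell in the same way, from 2.05 to 2.57 in the controls to 0.556 to 0.576 with metformin.

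Summed over the 8 E2f genes, the controls held 52.9, 57.7 and 59.0 FPKM and the metformin samples 81.3, 82.0 and 81.7 FPKM. The sum of E2f1, E2f2 and E2f3 was 13.9 to 16.1 FPKM in the controls and 30.6 to 31.9 FPKM with metformin. E2f7 and E2f8 together had 1.10 to 1.49 FPKM and 10.1 to 10.99 FPKM. The sum of E2f4 and E2f5 was 27.5 to 34.4 FPKM in the controls and 30.6 to 31.3 FPKM with metformin, where the groups overlapped.

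As a share of all E2f transcripts per length, E2f4 and E2f5 made up 52.0% to 58.2% of the controls and 37.4% to 38.5% of the metformin samples. The atypical pair went from 1.87% to 2.81% in the controls to 12.4% to 13.4% with metformin. Activators made up 26.3% to 27.9% and 37.6% to 39.0%. These sums and shares repeat the values of the single genes and were not tested.

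**Figure D3:**
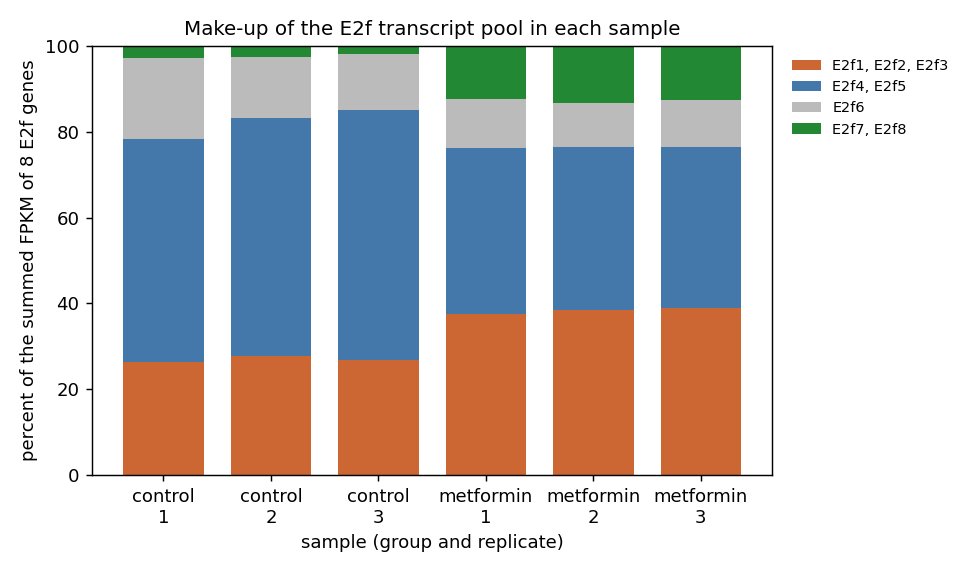
Share of the summed FPKM of the 8 E2f genes held by each class, in percent, with 1 bar per sample. The share of E2f4 and E2f5 is at least 52.0% in each control and 38.5% or less in each metformin sample, and the share of E2f7 and E2f8 is 2.81% at most in the controls and 12.4% at least with metformin.

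The partners of the E2F proteins were taken from lists of textbook genes, which were chosen with earlier results of these data known. Of the DP proteins, with which E2f1 to E2f6 bind DNA, Tfdp1 rose from 40.2, 35.0 and 31.6 FPKM to 52.4, 52.6 and 51.4 FPKM (log2 fold change 0.54, adjusted p = 0.0124 by limma-trend). Tfdp1 was no longer called when any 1 of the 3 metformin samples was left out. Tfdp2 had 6.09, 4.53 and 4.26 FPKM in the controls and 3.81, 3.65 and 3.66 FPKM with metformin, and its log2 fold change of -0.33 was not called (adjusted p = 0.112). The Tfdp1 window held an E2F motif, and the Tfdp2 window held none.

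The MuvB proteins bind pocket proteins and E2f4 in the DREAM complex of quiescent cells, and later bind Mybl2 and Foxm1, which drive mitotic genes. Of 8 genes of this list 4 were higher (against 13.2% of all tested genes) and the other 4 were not called, with a median log2 fold change of 0.38. Foxm1 had 4.35, 3.64 and 3.62 FPKM in the controls and 28.3, 29.0 and 26.6 FPKM with metformin (log2 fold change 2.58, adjusted p = 6.43e-05 by limma-trend). Mybl2 had 0.887, 1.06 and 0.934 FPKM against 7.37, 8.54 and 7.24 FPKM, a log2 fold change of 2.15. For both genes all metformin samples were more than 6-fold above the highest control. The other called genes were the MuvB subunits Lin9 (0.84) and Lin54 (0.62, both log2 fold changes). Lin37 (-0.40), Lin52 (-0.31), Rbbp4 (0.14) and the kinase Dyrk1a (0.02), which starts DREAM assembly, were not called. Of 6 genes of this list with a window, Lin52 and Dyrk1a had an E2F motif.

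Upstream of the pocket proteins, 8 of 12 tested G1 cyclins, kinases and kinase inhibitors were higher (against 13.2% of all tested genes) and the other 4 were not called, with a median log2 fold change of 0.78. The largest changes were those of Ccne2 (log2 fold change 1.502, adjusted p = 0.000375), Ccne1 (1.29, adjusted p = 0.000512) and the CDK4 and CDK6 inhibitor Cdkn2d (1.25, adjusted p = 0.00136 by limma-trend). Ccne1 and Ccne2 encode E cyclins, the partners of Cdk2 and known E2F targets. Ccne2 had 3.15, 2.73 and 2.05 FPKM in the controls and 9.17, 9.23 and 9.31 FPKM with metformin, and it overlaps Ints8 on the opposite strand, which had 865 to 1139 reads. The list thus held kinases and inhibitors of kinases among its higher genes. Over the fits that each left out a sample, 6 to 8 genes of the list were called higher. Ccnd2 kept its call in 1 of these 6 fits and Cdk4 in 5.

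Of 10 tested subunits of the chromatin complex that holds E2f6, 1 was lower, a share close to the 9.28% of all tested genes. This was Pcgf6, with a log2 fold change of -0.39 (adjusted p = 0.0489), and the other 9 were not called by limma-trend, where 13.2% of all tested genes were higher. The call did not hold for 4 of the 6 ways to leave out a sample, and without control replicate 1 there were 2 higher and 3 lower genes, in a fit that called 23.4% of all tested genes higher and 20.4% lower. The median log2 fold change of the list was 0.012. Of 8 chromatin proteins that pocket proteins bring to promoters, the histone methyltransferase Suv39h1 was higher (log2 fold change 1.05, adjusted p = 0.000722), the histone demethylase Kdm5a was lower (-0.44, adjusted p = 0.0418), and the other 6 were not called. These counts are close to the shares over all tested genes (13.2% higher and 9.28% lower). Leaving out a sample removed the call of Kdm5a in 4 of 6 cases.

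Most of the textbook targets of E2F factors were higher with metformin, on lists that were chosen with earlier results of these data known. Of 29 target genes of the G1 to S transition 28 were higher, where 13.2% of all tested genes were, with a median log2 fold change of 1.43, and the metformin samples lay above the controls for all 29 (against 23.6% of all tested genes). The largest changes were those of Uhrf1, which maintains DNA methylation (log2 fold change 2.55, adjusted p = 6.43e-05), the ribonucleotide reductase subunit Rrm2 (2.47, adjusted p = 0.000130), and the replicative helicase subunit Mcm5 (2.10, adjusted p = 6.43e-05 by limma-trend). Uhrf1 had 6.88, 6.29 and 5.45 FPKM in the controls and 41.2, 42.2 and 40.2 FPKM with metformin. The single gene that was not called was the phosphatase gene Cdc25a, with a log2 fold change of 0.27 (adjusted p = 0.0671), and it was called without control replicate 1 and by voom.

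All 18 genes of a list for G2 and mitosis, which DREAM holds down in quiescent cells, were higher, where 13.2% of all tested genes were. This list too was chosen with earlier results of these data known, so the count is a description. The log2 fold changes of the 18 genes were 1.81 to 2.62, with a median of 2.42. Ube2c, a ubiquitin-conjugating enzyme of mitotic exit, changed by 2.62, Top2a, which untangles chromosomes, by 2.61 and the mitotic activator Cdc20 by 2.57 on the log2 scale. In each of the 14 alternative fits all 18 were called, and 27 to 29 of the 29 G1 to S genes were called higher. Of the apoptosis genes known as E2F1 targets, Apaf1 was higher (log2 fold change 0.49, adjusted p = 0.0362) and Bcl2l11 was lower (-0.82, adjusted p = 0.000549 by limma-trend). Apaf1 lost its call in 5 of the 6 cases in which a sample was left out, all but that of control replicate 1.

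**Figure D4:**
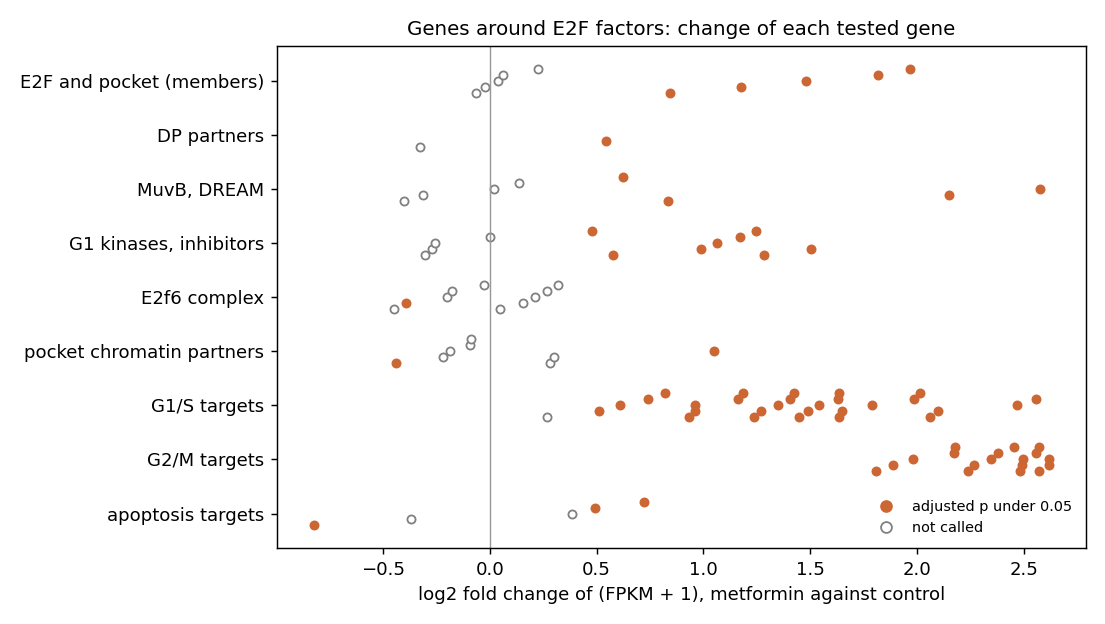
Log2 fold change of FPKM + 1 with metformin for each tested gene of the members and of 8 lists of related genes, filled where the adjusted p-value is under 0.05 and open where it is not. The 18 G2 and mitosis genes sit at 1.81 or higher and the G1 to S genes at 0.27 or higher, while the E2f6 complex and the chromatin partners spread on both sides of 0.

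The same 4 E2F sequences were counted in the RefSeq windows of the lists. Over all 27025 genes with a window 2.60% had a match. Of the G1 to S genes 12 of 24 had one: Cdc25a, Cdc6, Cdt1, Ezh2, Mcm3, Mcm5, Mcm6, Mcm7, Orc1, Pola1, Pole2 and Uhrf1. Cdc25a, the single G1 to S gene that was not called, is thus among those with a match. Of the G2 and mitosis genes 1 of 15 had a match, Cdk1. Among the members, E2f2, E2f7 and Rbl1 had a match and were higher, and E2f3 had one and was not called. E2f1 and E2f8 were higher without a match in their windows, and E2f6 had no match and was not called. No window was given for E2f4, E2f5 and Rb1. Whether a match goes with the change was not tested. Lists and windows are small, and the shares were not tested.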

How the data were processed

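RNA of 3 control and 3 metformin samples was sequenced from TruSeq libraries. The authors deposited 1 table of FPKM without a named unit, and each value times gene length is a whole multiple of 1 step per sample (100% of values above 0, within 0.01 read), which gave the reads. The submitters' processing notes name Bowtie 0.12.2 and the builds mm8 and mm9 without a role, whereas 53499 of the 54532 genes, the 10 members included, have GENCODE M21 (GRCm38) coordinates, which are used here. The counting tool is not given in the sources used here, and the study's own test was DESeq2. All 6 value columns were matched to samples by label, and 0 others were present.

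Groups were compared with limma 3.58.1 (R 4.3.3) on log2(FPKM + 1) with a trend of the variance on the mean, keeping genes whose FPKM averaged 0.5 or more, and p-values were adjusted over all of them by the Benjamini-Hochberg method. Members and lists were chosen with earlier results of these data known. Every member was named, with all DP, DREAM and Rbl2 genes and, in other lists, the 3 called genes with the largest change each way. Other list genes named (Cdc25a, Itgam and the like) were picked after their values were seen. Genes with a motif were named in full for the G1 to S and the G2 and mitosis lists. Alternatives were a pseudocount of 0.1, no filter, at least 10 reads in every sample, scaling by total reads, the replicate block, voom, a GC correction per library (a spline with 5 degrees of freedom), block and GC correction together, and each sample left out. The fit was tested on simulated data. Near-identical transcripts were sought with BLAST+ 2.17.0 (95% identity over 200 bases). A planned search of protein motifs was not run. Figures were drawn with matplotlib 3.10.9. A gene of the apoptosis list is not reported here.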

Additional observations from a re-analysis of the deposited data

How the results depend on the processing

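The 5 higher members kept their calls in all 14 alternative fits. Members called higher numbered 5, or 6 without control replicate 1 (E2f3, log2 fold change 0.31). The log2 fold changes of uncalled members changed sign: without control replicate 1 that of E2f4 was -0.17, that of E2f5 0.17 and that of Rb1 0.18, Rb1 was 0.01 without metformin replicate 2, and E2f6 was -0.029 when control replicate 3 was left out and -0.022 under the GC correction, with or without the replicate block. Over the fits that each left out a sample the ranges were 0.17 to 0.31 for E2f3, -0.17 to 0.22 for E2f4, -0.22 to 0.17 for E2f5, -0.029 to 0.14 for E2f6 and -0.19 to 0.18 for Rb1. The cause was not tested.

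Over the same fits, all genes called higher ranged from 938 to 2969 (1670 with all samples) and all genes called lower from 495 to 2590 (1177 with all samples), with both maxima without control replicate 1. Genes called lower were 698 with the replicate block, 2433 with the GC correction and 1888 with both. The GC correction moved the median log2 fold change of all tested genes by -0.0542, and 2062 genes were then called higher. Deviations of same-numbered samples from their group means had correlations of -0.0533, 0.0003 and -0.0549. For differently numbered samples they ranged from -0.0936 to 0.094. Because control replicate 1 stood apart from the other controls, these values cannot show whether the replicate numbers pair the samples. With the replicate block 1161 genes were called higher, and the 5 members stayed called.

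The counts of the lists stand beside these shares of all tested genes. The fit with all samples called 13.2% higher and 9.28% lower, and the GC correction 16.3% and 19.2%. The fit without control replicate 1 called 23.4% higher and 20.4% lower. DP partners called higher ranged from 0 to 1 when a sample was left out, and 1 was called lower with the GC correction, with or without the block. DREAM genes called lower were 1 with the GC correction, with or without the block, and 0 to 1 when a sample was left out. G1 cyclins, kinases and inhibitors called lower were 1 with no filter, 1 when libraries were scaled by total reads, 2 under the GC correction, 1 under it and the block, and 0 to 2 when a sample was left out. Genes of the E2f6 complex called lower were 0 with no filter, with the replicate block and with voom, 2 with the GC correction, with or without the block, and 0 to 3 when a sample was left out. Its genes called higher were 1 with the GC correction, with or without the block, and 0 to 2 when a sample was left out. Chromatin partners called higher were 2 with the GC correction and 1 to 3 when a sample was left out, and those called lower were 0 with no filter and with the block, 2 with the GC correction and 0 to 2 when a sample was left out. Apoptosis genes called higher were 1 with no filter and with the replicate block, and 1 to 3 when a sample was left out, and those called lower were 1 to 2. Reads limit E2f2 most, which had 41 to 49 reads in the controls.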
